A study of Caenorhabditis elegans with 26 samples.

Results

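miRBase numbers microRNAs (miRNAs) roughly in the order in which they were registered, so that names with 4 digits belong to sequences named later, many of them from deep sequencing. The miRNAs described here are those numbered 1000 or more in hourly small RNA libraries of whole *Caenorhabditis elegans* larvae. Of 201 listed sequences with such a number, 15 whose names start with miR-1018, miR-1019, miR-1020, miR-1829, miR-1834, miR-2209a or miR-5592 were left out, and 107 of the other 186 had fewer than 26 counts summed over the 26 libraries, including 33 with none. This left 79 mature sequences from 63 hairpins, of 437 listed in all. By arm, 29 were 5p strands, 41 were 3p strands and 9 carried no arm in their name.

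The libraries came from the strain HW2643, *mir-235(xe181[seed_mutant])*, here *mir-235(seed_mut)* or simply the mutant, and from wild-type N2, with 13 libraries each. Larvae hatched without food were plated as L1 on OP50 bacteria at 25 °C and collected every hour between 18 h and 30 h after plating, with 1 library per strain and hour. In the mutant, bases of the miR-235 seed were edited together with matching bases on the passenger side. Each strain has 1 series of hourly libraries, and the labels do not say how its cultures were grown. Strain and culture cannot be told apart here, and no hour had a replicate within a strain. The p-values therefore rest on how far single hours scatter around a fitted curve. Totals ranged between 2658960 and 4279734 counts in the mutant and between 1342771 and 3587330 in N2, where the 23 h library was the smallest. Reads of the other strain's miR-235-3p allele made up a median of 0.0371% in mutant libraries and 0.129% in N2 libraries, with a highest share of 2.66% in N2. Let-7-5p, a miRNA that accumulates as larvae mature, stood at 751 CPM (the count scaled to a common library total) in the mutant and 641 CPM in N2 at 18 h, and at 38150 CPM in the mutant and 35460 CPM in N2 at 30 h.

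miRNAs are excised from hairpin transcripts, first in the nucleus by the Microprocessor (Drosha with its cofactor Pasha) and then by Dicer. One strand of the duplex, the guide or miR, is usually kept by an Argonaute protein, and the passenger strand is usually degraded. Some hairpins stand in introns of protein-coding genes, and neighbouring hairpins can be cut from 1 transcript. For most of the miRNAs described here no target or function is known with certainty, and they are ordered below by level, trend, strain and hairpin.

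The 79 miRNAs were rare. Together they held 127026 counts, 0.163% of all counts, and between 0.130% and 0.218% of a library. Their median mean count per library was 7.5, against 288 for the other 220 sequences that met the same count limit. The most abundant, miR-1022-5p, ranked 67 among all listed sequences. Because the members were chosen by their summed count, these levels describe them and test nothing. Those just inside the limit were miR-8209-3p and miR-2208b-5p with 35 counts each, miR-8206-3p with 33, miR-8196b-3p with 32, miR-1832b-3p with 31, miR-8211-3p with 30, miR-8212-3p with 28 and miR-4805-3p with 27. Just outside stood miR-5553-5p with 23, miR-5552-3p with 22, miR-2219-3p with 21, and miR-5545-3p and miR-8189-5p with 20 each.

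The counts were unevenly spread. The 2 leading miRNAs, miR-1022-5p with 37698 counts and miR-1820-5p with 26233, held 50.3% of them, and 47 members averaged under 10 counts per library. By number, the 18 members below 2000 held 66.5% of the counts, the 14 from 2000 to below 3000 held 6.89%, the 20 from 4000 to below 5000 held 20.4%, and the 27 from 5000 on held 6.15%. A filter on low counts let 30 of the 79 (38.0%) into the tests, against 187 of the other 358 listed sequences (52.2%). Of those 358, only 220 met the count limit that all 79 members had met, so the like comparison is with 187 of 220. These 30 held 95.4% of the members' counts. The 49 that did not pass had summed counts between 27 and 269, apart from miR-1817 with 806, and their values are given as descriptions.

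The range over the hours was wide. miR-1022-5p had a lowest value of 249, a median of 454 and a highest value of 926 CPM in the mutant, against 270, 501 and 791 CPM in N2. Its highest hours were 18 h in the mutant and 19 h in N2, and its lowest were 30 h and 29 h. The values of the strains overlapped, as they did for each of the 79 members.

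miR-1820-5p followed, with 251, 366 and 619 CPM (lowest, median and highest) in the mutant against 123, 285 and 334 CPM in N2. A single library set each extreme, 28 h in the mutant and 23 h in N2. miR-4816-3p averaged 155 ± 28 CPM in the mutant and 134 ± 22 CPM in N2 (SD, n = 13 hours each, as in all means over the hours), miR-1822-3p 91.9 ± 12.5 and 89.3 ± 21.3 CPM, and miR-4936 77.4 ± 13.2 and 74.0 ± 15.1 CPM. Below these, miR-2210-3p averaged 58.6 CPM in the mutant and 57.2 CPM in N2, miR-1819-3p 52.9 and 51.7 CPM, miR-5551-5p 39.4 and 41.8 CPM, and miR-1830-3p 34.4 and 31.0 CPM. The other members with a mean of at least 50 counts were miR-4813-3p, miR-1821-3p, miR-4816-5p, miR-1832a-5p, miR-2212-5p and miR-8196a-3p, with means between 17.1 and 31.7 CPM in the mutant and between 14.7 and 26.3 CPM in N2.

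**Figure D1:**
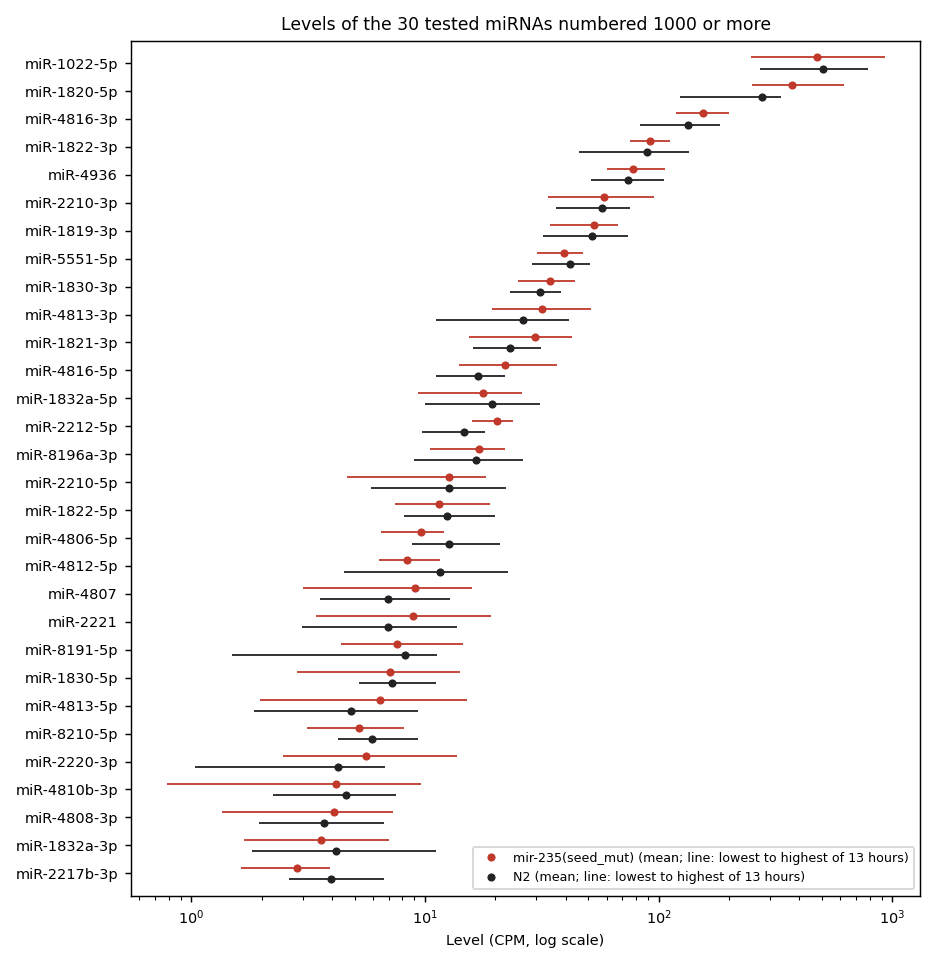
Level of each of the 30 tested miRNAs in CPM on a log axis, with *mir-235(seed_mut)* above N2 in each pair. Points are means over 13 hourly libraries and lines run between the lowest and the highest hour. miR-1022-5p and miR-1820-5p lie above all others, and the lines of the strains overlap for each miRNA.

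Whether the members changed steadily over the 12 h was asked with a linear term in time shared by the strains, fitted beside a 7 h cosine and sine in each strain. Of the 30 tested, 6 rose and 6 fell (edgeR quasi-likelihood test, adjusted p below 0.01), together 40% of them. Among all 217 miRNAs tested, 20.7% rose and 19.8% fell, 40.6% in either direction, so the members' share was that of the miRNAs at large. Their median slope was -0.01 log2 per h, against -0.0005 for all miRNAs tested. With library totals in place of TMM scaling the split was 4 rising and 11 falling members. The median slope of all miRNAs moved to -0.02 there, so this split is not read as particular to the members.

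The miRNAs that rose came from 5 hairpins, and both arms of mir-2210 were among them. miR-2210-5p had 4.66, 7.58 and 11.3 CPM at 18, 19 and 20 h in the mutant and 12.8, 17.5 and 14.8 CPM at 28, 29 and 30 h. In N2 it had 5.88, 7.41 and 10.2 CPM at the early hours and 22.2, 16.2 and 18.4 CPM at the late ones. The early and late values did not overlap in either strain, and the shared slope was 0.12 ± 0.02 log2 per h (SE), a 2.81-fold rise over 12 h (adjusted p = 3.45e-05). Its opposite strand miR-2210-3p, the more abundant one, averaged 42.8 CPM early and 75.2 CPM late in the mutant and 50.4 and 68.0 CPM in N2 (slope 0.09 ± 0.02, adjusted p = 3.77e-05). In the WBcel235 annotation mir-2210 lies on the plus strand of chromosome IV and overlaps an exon of the gene *ZK593.2* on the same strand.

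miR-4812-5p, from an intron of *piki-1* (a phosphoinositide 3-kinase) on the X chromosome, had the highest slope among the tested members, 0.13 ± 0.02 log2 per h (adjusted p = 1.94e-04). In the mutant it had 7.86, 6.79 and 7.09 CPM at 18, 19 and 20 h and 10.7, 10.5 and 8.86 CPM at 28, 29 and 30 h. In N2 the early values were 7.52, 7.41 and 5.77 CPM and the late values 19.8, 15.6 and 16.6 CPM. The late values were thus higher than the early ones in both strains, by 1.38-fold in the mutant and 2.51-fold in N2. The difference of the slopes, mutant minus N2, was -0.12 ± 0.05 log2 per h and did not pass the threshold (adjusted p = 0.457).

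miR-1819-3p and miR-2212-5p come from hairpins 67 bases apart on the plus strand of the X chromosome, in no protein-coding gene, and both rose. miR-1819-3p averaged 37.5 CPM at 18 to 20 h and 58.1 CPM at 28 to 30 h in the mutant, and 40.5 and 62.9 CPM in N2, with no overlap of the early and late values in either strain (slope 0.08 ± 0.02 log2 per h, adjusted p = 0.0015). miR-2212-5p averaged 18.9 and 22.3 CPM in the mutant, where the early and late values overlapped, and 12.5 and 17.0 CPM in N2, where they did not (slope 0.05 ± 0.01, adjusted p = 0.0012). That call ended without the N2 28 h library (slope 0.04, adjusted p = 0.0122), with library totals (0.03, adjusted p = 0.0451) and with limma (0.03, adjusted p = 0.0274).

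The last riser was miR-1830-3p, from an intron of *paic-1*, a gene of purine synthesis, on chromosome II. Its slope was 0.04 ± 0.01 log2 per h (adjusted p = 0.00637), but its early and late values overlapped in both strains, with means of 29.9 and 33.8 CPM in the mutant and 32.4 and 31.4 CPM in N2. The call ended in 15 of the 26 fits that left out 1 library (slopes 0.03 to 0.05), with library totals (0.03, adjusted p = 0.0823) and with limma (0.02, adjusted p = 0.0610). It held in the fits that dropped N2 at 18, 25, 26, 27, 29 or 30 h, and in those that dropped the mutant at 24, 25, 27, 28 or 30 h.

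Among the miRNAs that fell, the lowest slope was that of miR-2221, from the plus strand of the X chromosome outside protein-coding genes. In the mutant it had 19.2, 10.2 and 13.5 CPM at 18, 19 and 20 h and 4.18, 4.05 and 3.61 CPM at 28, 29 and 30 h. In N2 the values were 9.15, 13.8 and 9.76 CPM early and 4.16, 3.07 and 3.93 CPM late. Early and late values lay apart in both strains, and the slope was -0.15 ± 0.02 log2 per h, a 3.47-fold fall over 12 h (adjusted p = 6.63e-07).

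The most abundant member, miR-1022-5p (minus strand of the X chromosome, in no protein-coding gene), fell as well. It averaged 729 ± 174 CPM at 18 to 20 h and 269 ± 17 CPM at 28 to 30 h in the mutant, and 742 ± 44 and 314 ± 48 CPM in N2 (SD, n = 3 hours each). The early hours exceeded the late hours 2.71-fold in the mutant and 2.36-fold in N2. The slope was -0.12 ± 0.02 log2 per h (adjusted p = 7.37e-07).

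miR-1821-3p had 42.2, 37.4 and 42.5 CPM at 18, 19 and 20 h and 22.7, 20.6 and 15.4 CPM at 28, 29 and 30 h in the mutant, against 28.1, 24.0 and 28.9 CPM early and 18.4, 17.3 and 16.0 CPM late in N2 (slope -0.09 ± 0.01 log2 per h, adjusted p = 1.30e-06). Its hairpin lies on the minus strand of chromosome V, 349 bases from mir-792, whose 3p strand had a slope of -0.07 (adjusted p = 0.0106). miR-1832a-5p, from an intron of the splicing factor gene *rsp-8* on chromosome III, averaged 23.4 CPM early and 11.8 CPM late in the mutant and 25.6 and 11.2 CPM in N2 (slope -0.09 ± 0.02, adjusted p = 7.74e-04). For both miRNAs the early and late hours did not overlap in either strain.

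miR-4813-3p, whose hairpin overlaps an exon of *idhg-1* (a subunit of isocitrate dehydrogenase) on chromosome III, averaged 41.8 CPM early and 24.7 CPM late in the mutant, without overlap, and 31.5 and 23.0 CPM in N2, with overlap. Its slope was -0.06 ± 0.02 log2 per h (adjusted p = 0.00404). The call ended in the fits that dropped N2 at 18, 26 or 27 h and in those that dropped the mutant at 26, 27 or 30 h (slopes over all single removals -0.07 to -0.05, highest adjusted p = 0.0232), with no filter on low counts (-0.05, adjusted p = 0.0467) and with mutant time moved later by 1 h (-0.05, adjusted p = 0.0248).

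A group of 6 hairpins on the plus strand of the X chromosome, mir-4807, mir-4808, mir-4809, mir-2220, mir-4810b and mir-4810a, stood within a short stretch outside protein-coding genes, with 426 bases between mir-4807 and mir-4808 and 123 between mir-4809 and mir-2220. All 4 of their tested strands had negative slopes, and 1 passed the threshold. This was miR-4807, with 14.6, 15.9 and 10.3 CPM at 18, 19 and 20 h and 3.92, 6.41 and 3.94 CPM at 28, 29 and 30 h in the mutant, and 12.7, 10.9 and 7.10 CPM early and 5.90, 6.13 and 5.14 CPM late in N2 (slope -0.12 ± 0.02 log2 per h, adjusted p = 5.85e-05). The slopes of miR-2220-3p (-0.09, adjusted p = 0.0101), miR-4810b-3p (-0.08, adjusted p = 0.0261) and miR-4808-3p (-0.06, adjusted p = 0.0397) did not. miR-2220-3p stood next to the threshold and passed it in 14 of the 26 fits that left out 1 library, and with size factors, library totals, DESeq2 or limma. Members with lettered copies, such as miR-4810a and miR-4810b-3p, may hold reads of each other, and each value is uncertain to that extent.

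**Figure D2:**
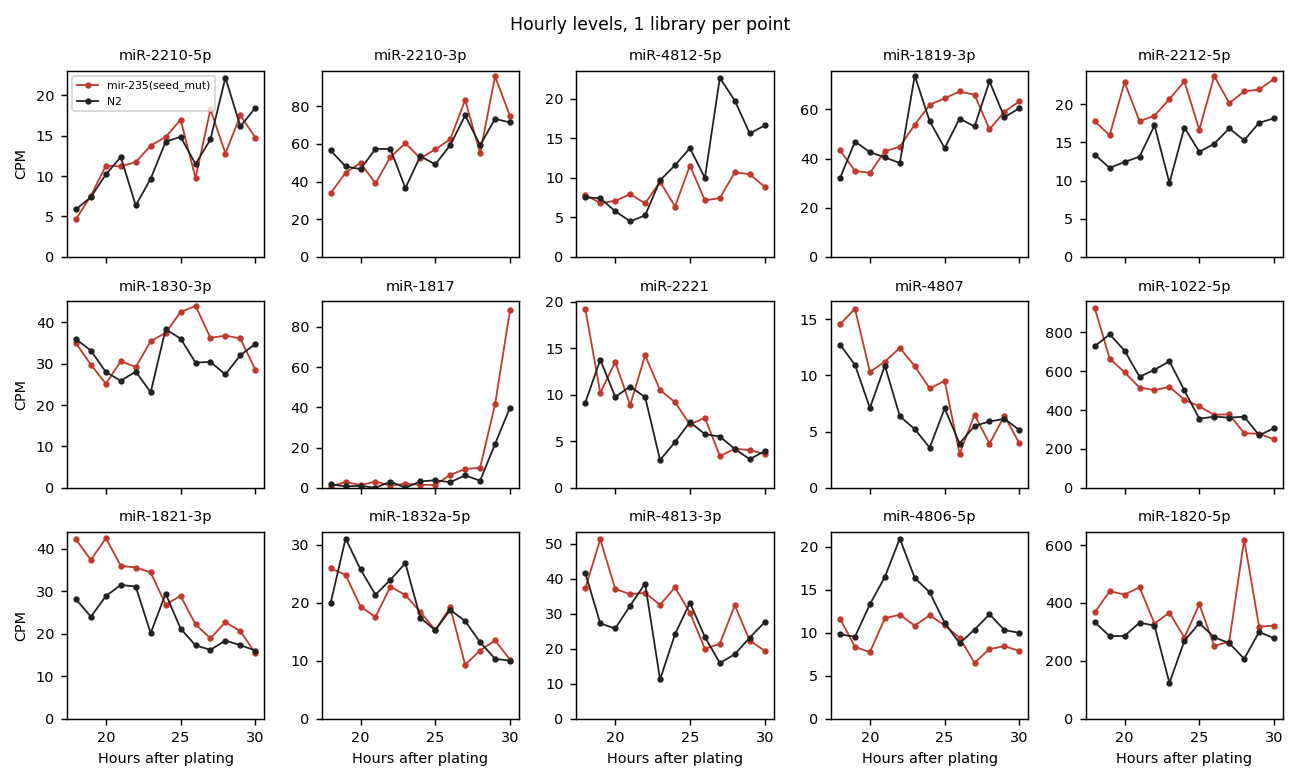
CPM (vertical axis, starting at 0) against hours after plating for *mir-235(seed_mut)* (red) and N2 (black), 1 library per point. The first 6 panels hold the miRNAs that rose and miR-2221 to miR-4813-3p those that fell. miR-4806-5p and miR-1820-5p did not pass that test, and miR-1817 had too few counts to enter it. miR-1817 reached 88.3 CPM in the mutant and 39.9 CPM in N2 at 30 h.

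As a count free of the fitted curve, CPM values at 28 to 30 h were set against those at 18 to 20 h. In both strains all late values lay above the early ones for 5 of the 30 members (16.7%) and all below for 7 (23.3%). Over all 217 miRNAs tested the shares were 14.3% and 22.1%. In the mutant alone the late hours were higher for 5 members and lower for 10, and in N2 higher for 7 and lower for 10. Over all miRNAs tested, 18.4% were higher and 32.3% lower late in the mutant, and 23.0% higher and 26.7% lower in N2. miR-5551-5p was higher late in both strains without passing the slope test (0.04, adjusted p = 0.0233). Lower late in both, also without passing it, were miR-1822-5p (-0.03, adjusted p = 0.195) and miR-4810b-3p (-0.08, adjusted p = 0.0261). Here and for the members above, early and late values were compared on library totals, without the TMM factors of the slope test. Those factors lay between 1.10 and 1.16 early and between 0.940 and 0.999 late in the mutant. In N2 they lay between 0.902 and 1.05 early and between 0.869 and 1.04 late. Which values overlap can therefore change with the scaling.

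miR-1817, a member from chromosome I (minus strand, outside protein-coding genes), did not enter the tests because its counts were low in most libraries, and it was singled out after its values were seen. In the mutant it had between 0.582 and 3.04 CPM at 18 to 25 h, then 6.39, 9.29, 9.92, 41.5 and 88.3 CPM in the hours 26, 27, 28, 29 and 30 (95% exact Poisson interval 78.0 to 99.5 CPM in the last, from 269 counts). In N2 it had between 0 and 3.72 CPM at 18 to 25 h, with no count at 21 h and 23 h, and then 2.72, 6.15, 3.47, 21.7 and 39.9 CPM at 26, 27, 28, 29 and 30 h (33.4 to 47.3 CPM at 30 h, from 132 counts). A count of 0 allows up to 1.12 CPM at 21 h and 2.23 CPM at 23 h (3 counts). Both strains therefore held most of its reads in the last 2 libraries. At 30 h the interval of the mutant lay above that of N2, a comparison of single libraries that covers counting error only.

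In the fit without the filter, over 389 miRNAs, the slope of miR-1817 was 0.51 ± 0.07 log2 per h (adjusted p = 1.33e-06) and its strain difference 0.63 ± 0.29 (log2, adjusted p = 0.186). There, 2 of the 49 untested members rose and 1 fell, where 15.9% of all 389 rose and 7.2% fell, 23.1% in either direction. Beside miR-1817, these members were miR-5549-3p (0.20 ± 0.07, adjusted p = 0.00995), from the minus strand of chromosome III and with 82 counts in all, and miR-5546-3p (-0.11 ± 0.03, adjusted p = 0.00767), from an intron of *arx-1* (an Arp2/3 complex gene) with 263 counts. In whole larvae, a change in the number of cells that hold a miRNA and a change in its level per cell cannot be told apart. Marker miRNAs also had slopes over the same hours, 0.08 for intestinal miR-60-3p (adjusted p = 0.00131) and 0.02 for muscle miR-1-3p (adjusted p = 0.0955). Of 4 neuronal miRNAs, lsy-6-3p (-0.06, adjusted p = 0.00605) and miR-790-5p (-0.07, adjusted p = 0.00473) fell, while miR-124-3p had -0.05 (adjusted p = 0.0139) and miR-791-3p -0.03 (adjusted p = 0.492). The other arms of the mir-790 and mir-791 hairpins, added after their values were seen, fell too (miR-790-3p -0.09, adjusted p = 2.70e-04, and miR-791-5p -0.06, adjusted p = 0.005). None of these markers was at 0 in a library, and their part in the members' slopes was not tested.

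Whether mean levels differed between the strains was asked with a strain term beside a 6-component spline of time. Of the 30 members, 1 was higher and 1 lower in the mutant (edgeR, adjusted p below 0.01), against 2.76% higher and 4.61% lower among all 217 miRNAs tested. The 2 calls are 6.67% of the members, beside 7.37% of all miRNAs in either direction. At an unadjusted p under 0.05 there were 7 members, and 75 of all 217. The members' median difference, mutant minus N2, was -0.08 (log2), against -0.02 for all. The scaling matters for its sign. With TMM factors 18 of the 30 members had a negative difference, while the mean CPM, which uses library totals, was higher in the mutant for 18, and library totals moved the median of all miRNAs to 0.10.

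miR-2212-5p had the higher CPM in the mutant at each of the 13 hours. Its lowest, median and highest values were 15.9, 20.7 and 23.7 CPM in the mutant, against 9.68, 14.8 and 18.1 CPM in N2, so that the ranges overlapped although each hour differed in the same direction. The means were 20.3 ± 2.7 CPM in the mutant and 14.7 ± 2.6 CPM in N2, and the fitted difference was 0.35 ± 0.09 (log2), a 1.28-fold higher level (adjusted p = 0.00922). The neighbouring hairpin's miR-1819-3p had a difference of -0.11 ± 0.14 (adjusted p = 0.552), whose sign turned with library totals (0.03), with limma (0.04) and without the N2 23 h library (0.05).

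miR-4806-5p, from an intron of *ras-1* (a Ras-related small GTPase) on chromosome II, had the lower CPM in the mutant at 11 of 13 hours. It had 6.51, 9.40 and 12.1 CPM (lowest, median and highest) in the mutant and 8.77, 11.2 and 21.0 CPM in N2, with the highest value at 22 h in both. The means were 9.66 ± 1.93 and 12.6 ± 3.6 CPM, and the difference was -0.49 ± 0.12 (log2, adjusted p = 0.00837), a 1.40-fold higher level in N2. At 21, 22 and 23 h the mutant had 11.7, 12.1 and 10.8 CPM and N2 16.5, 21.0 and 16.4 CPM.

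Both strain calls were close to the threshold and ended in 18 of the 26 fits that left out 1 library, among them the one without the N2 23 h library (miR-2212-5p 0.39, adjusted p = 0.0103, and miR-4806-5p -0.41, adjusted p = 0.0203). Both also ended with the hour as a block (adjusted p = 0.0204 for miR-2212-5p and 0.0233 for miR-4806-5p), with no filter and with mutant time later by 1 h. Over the single removals the differences stayed between 0.32 and 0.42 for miR-2212-5p and between -0.55 and -0.41 for miR-4806-5p, with highest adjusted p of 0.0207 and 0.0280. The miR-2212-5p call held without N2 at 22, 24, 25 or 26 h or the mutant at 18, 25, 26 or 27 h, and the miR-4806-5p call without N2 at 18, 25, 26 or 29 h or the mutant at 18, 24, 25 or 26 h.

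Among the members that did not pass, miR-2217b-3p (-0.58 ± 0.21, adjusted p = 0.0532) and miR-4812-5p (-0.49 ± 0.16, adjusted p = 0.0460) had the lowest differences. By CPM, which uses library totals, miR-1820-5p was higher in the mutant in 12 of 13 hours and miR-1821-3p in 11 of 13. Their fitted differences, with TMM factors, were 0.30 ± 0.12 (adjusted p = 0.0714) and 0.21 ± 0.08 (adjusted p = 0.0750). miR-1022-5p had -0.26 ± 0.11 (adjusted p = 0.101). Among the markers, miR-60-3p had a strain difference of 0.37 (adjusted p = 0.0460) and miR-1-3p of 0.04 (adjusted p = 0.774), and the 4 neuronal miRNAs lay between -0.33 and 0.25, none past the threshold.

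**Figure D3:**
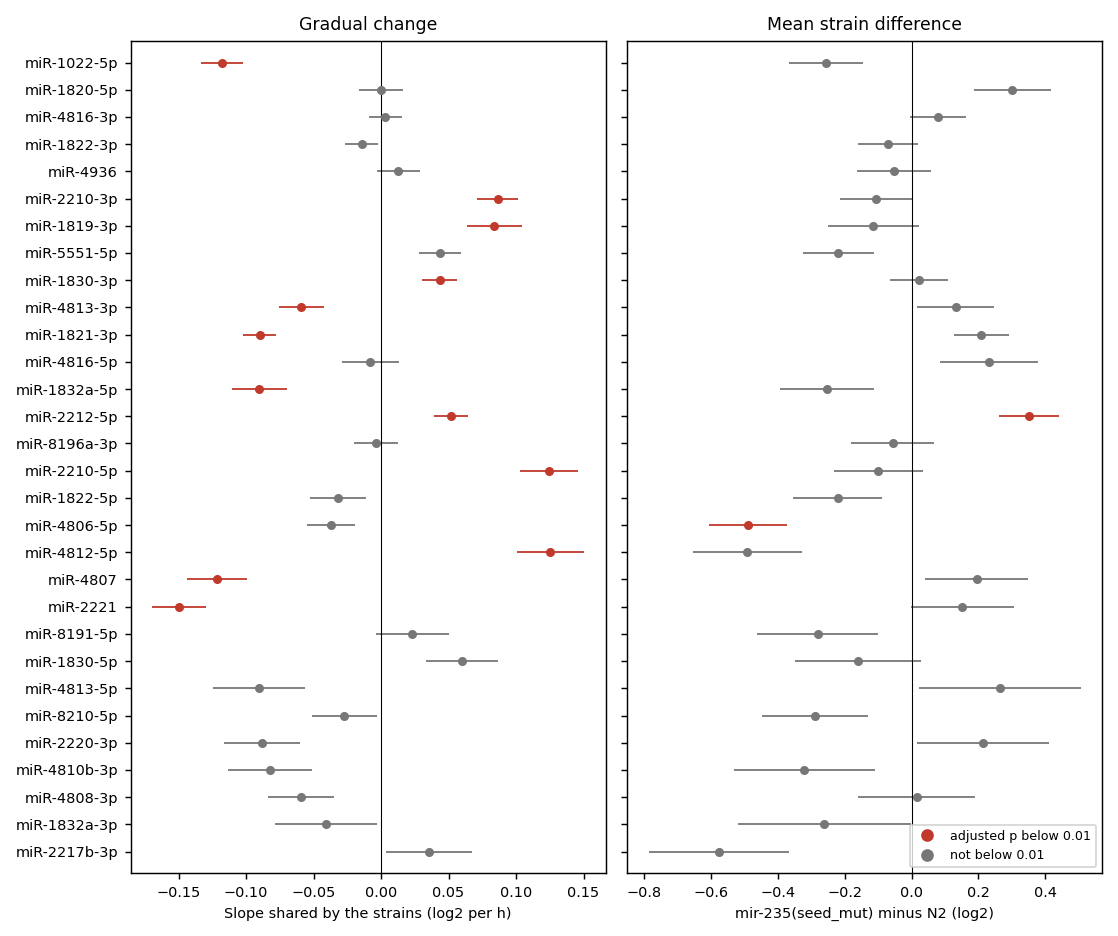
Slope shared by the strains (left, log2 per h) and mean strain difference, *mir-235(seed_mut)* minus N2 (right, log2), of the 30 tested miRNAs in order of summed count. Points are edgeR estimates, bars 1 SE, and red marks an adjusted p below 0.01, which holds for 12 slopes and 2 strain differences.

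The hairpin mir-4816 lies in an intron of *T09B4.2* on the plus strand of chromosome I, 22693 bases from the edited mir-235, which is on the minus strand. miR-4816-3p had 118, 154 and 200 CPM (lowest, median and highest) in the mutant and 83.4, 133 and 183 CPM in N2. Its strain difference was 0.08 ± 0.08 (log2, adjusted p = 0.517), and that of miR-4816-5p 0.23 ± 0.15 (adjusted p = 0.280). No difference near the edited locus passed the threshold for either arm.

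The course over time was also compared as a whole. In the test of any strain difference over time, edgeR called 0 of the 30 members (smallest adjusted p = 0.193) and 0% of all 217 miRNAs, and 3 members and 34 of all 217 had an unadjusted p under 0.05. The slopes differed between the strains for 0 members and 0% of all miRNAs, with 4 members and 15 of all 217 at an unadjusted p under 0.05. Of these members, miR-4936 had the smallest p (slope difference, mutant minus N2, 0.10 ± 0.03 log2 per h, unadjusted p = 0.00102, adjusted p = 0.221). It had 69.0, 63.7 and 76.3 CPM at 18 to 20 h and 60.0, 106 and 94.2 CPM at 28 to 30 h in the mutant, against 105, 78.0 and 64.4 CPM early and 55.8, 81.4 and 66.2 CPM late in N2. DESeq2 and limma also called 0 members in both tests, and their calls over all miRNAs are not given here.

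Many larval transcripts of *C. elegans* cycle once per larval stage, and a rhythm with a 7 h period was therefore fitted in each strain. In the mutant 0 of the 30 members were rhythmic, where 2.3% of all miRNAs were, and in N2 0 of 30, where 5.99% were (edgeR, adjusted p below 0.01). At an unadjusted p under 0.05 there were 3 members in the mutant, beside 42 of all 217 miRNAs, and 2 in N2, beside 49 of 217. DESeq2 and limma called 0 members in both strains. Their calls over all miRNAs are not given, so this 0 is not read as particular to the members. The median amplitude, from midline to peak, was 0.16 (log2) in the mutant and 0.16 in N2, against 0.20 and 0.19 over all miRNAs tested. The 12 h sampled hold fewer than 2 periods, so that amplitude and slope are partly confounded.

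The smallest adjusted p in the mutant was that of miR-4808-3p (amplitude 0.52 ± 0.15, adjusted p = 0.0770), and in N2 that of miR-4806-5p (0.41 ± 0.13, peak at 22.1 h, adjusted p = 0.0824). In the mutant the amplitude of miR-4806-5p was 0.22 ± 0.13 (adjusted p = 0.620), and in N2 that of miR-4808-3p was 0.06 ± 0.17 (adjusted p = 0.978). The rhythms differed between the strains for 0 members and 0.461% of all miRNAs. That test took the cosine and sine terms together, so its p covers peak time as well as amplitude. The smallest p among the members was that of miR-2221 (unadjusted p = 0.0226, adjusted p = 0.569). It was the only member with an unadjusted p under 0.05, where 17 of all 217 were. DESeq2 and limma called 0 members, and their calls over all miRNAs are not given here. For N2 the fitted peak of miR-2221 was 20.0 h (amplitude 0.36 ± 0.16), and for the mutant it was 23.5 h (0.25 ± 0.14). The amplitude difference, mutant minus N2, was -0.11, with a sign that depended on the setting.

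Single libraries moved several members. In N2, 23 h was the lowest hour for 11 of the 30 members (36.7%) and for 38.7% of all miRNAs tested, and the highest hour for 4 members (13.3%) and 11.5% of all. There, 4 members stood below 0.5 times the mean of 22 h and 24 h, where 22.1% of all miRNAs did. These were miR-8191-5p (0.184 times, from 2 counts at 23 h), miR-4813-3p (0.357, 15 counts), miR-2221 (0.407, 4 counts) and miR-1820-5p (0.416, 165 counts). miR-1820-5p had 123 CPM at that hour (exact Poisson interval 105 to 143), against 321 CPM at 22 h and 269 CPM at 24 h. CPM uses library totals, and the TMM factor of the N2 23 h library was 0.697, against 1.13 at 22 h and 1.04 at 24 h. In the other direction, miR-1832a-3p stood at 3.40 times the mean of 22 h and 24 h (15 counts at 23 h) and miR-2217b-3p at 2.22 (9 counts). miR-1830-5p stood at 1.74 (15 counts) and miR-1819-3p at 1.58 (99 counts). Ratios that rest on few counts carry a wide counting error, and this was the smallest library.

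The mutant library at 28 h moved members in both directions, with a median ratio to the mean of 27 h and 29 h of 1.03, against 1.06 for all miRNAs tested. There, 6 members exceeded 1.5 times the mean of 27 h and 29 h, where 15.2% of all miRNAs did. miR-1820-5p had 619 CPM (595 to 645), against 266 CPM at 27 h and 318 CPM at 29 h, a ratio of 2.12, and in N2 its values were 261, 207 and 299 CPM at 27, 28 and 29 h. The others were miR-1832a-3p (2.30, from 17 counts at 28 h), miR-4813-5p (2.11, 27 counts), miR-4816-5p (1.79, 110 counts), miR-8196a-3p (1.71, 84 counts) and miR-2220-3p (1.70, 18 counts). The lowest ratios were those of miR-4810b-3p (0.211, 3 counts), miR-2217b-3p (0.513, 7 counts) and miR-8210-5p (0.568, 12 counts).

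Both arms were among the members for 16 hairpins. The 3p strand was the more abundant in 9 and the 5p strand in 7. The share of the more abundant strand ranged between 56.4% and 99.6% of a hairpin's counts in the mutant and between 55.6% and 99.5% in N2 (sums of 13 libraries). It was 99.6% for miR-1022-5p in the mutant (Wilson 95% interval 99.5% to 99.7%) and 99.5% in N2 (99.4% to 99.6%), so the passenger had only 75 and 83 counts. For mir-4816 the 3p share was 87.5% (86.8% to 88.2%) in the mutant and 88.8% (87.9% to 89.6%) in N2. The intervals overlapped for mir-4816, as for the others named here, and cover counting error only.

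Passenger strands were thus well represented in several hairpins. The 3p share was 88.7% in the mutant and 88.0% in N2 for mir-1822, 82.1% in both for mir-2210, 83.1% and 81.5% for mir-1830, and 83.1% and 85.4% for mir-4813. The 5p share was 83.0% and 82.9% for mir-1832a, 77.0% and 78.5% for mir-4812, and 93.1% and 95.8% for mir-4806. At the other end, mir-8186 was near even, with a 3p share of 57.5% (48.8% to 65.7%) in the mutant and 55.6% (46.2% to 64.6%) in N2, from 127 and 108 counts of both arms. Over time, both arms of mir-2210 rose. Of mir-1830, mir-4813 and mir-1832a only the more abundant arm passed the slope test, with slopes of 0.04 ± 0.01, -0.06 ± 0.02 and -0.09 ± 0.02 (SE). The other arms averaged only 21.1, 16.9 and 11.1 counts per library, and their slopes had the same sign with larger SEs. These slopes were 0.06 ± 0.03 (miR-1830-5p, adjusted p = 0.0608), -0.09 ± 0.03 (miR-4813-5p, adjusted p = 0.0269, past the threshold with library totals and with limma) and -0.04 ± 0.04 (miR-1832a-3p, adjusted p = 0.365). The difference between arms was not tested.

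**Figure D4:**
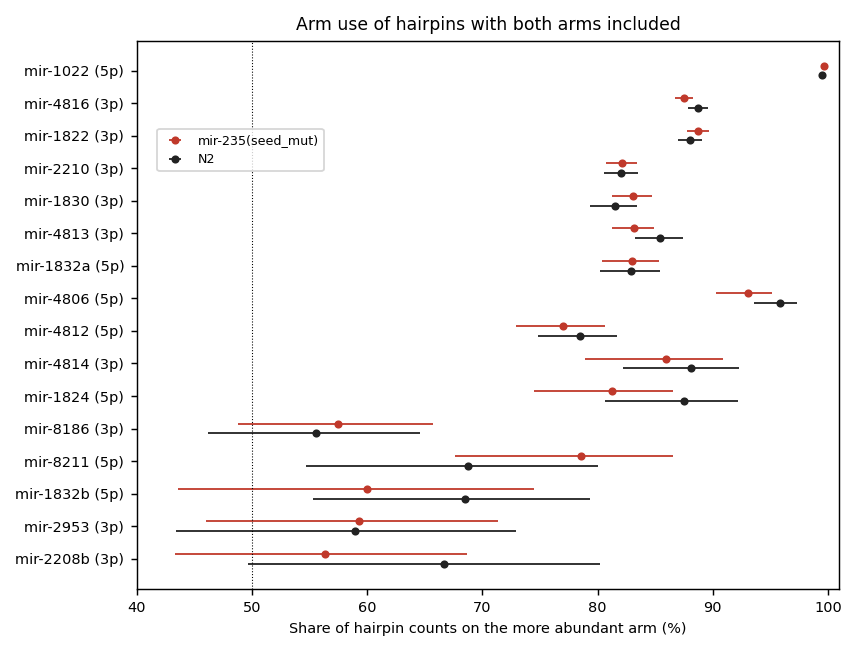
Share of a hairpin's counts on its more abundant arm (named in brackets), in percent, for the 16 hairpins with both arms among the members, with *mir-235(seed_mut)* (red) above N2 (black). Points are sums over 13 libraries and bars Wilson 95% intervals. The shares run between 55.6% (mir-8186 in N2) and 99.6% (mir-1022 in the mutant). The axis starts at 40%.

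By name, 61 of the 63 hairpins matched a gene of the WBcel235 annotation, which is a later build than the ce10 the reads were aligned to, so positions are given only by chromosome and neighbour. In this annotation 23 of the 61 (37.7%) lie in an intron of a protein-coding gene on the same strand, against 67 of all 258 annotated miRNA genes (26.0%), which include them. In no protein-coding gene lie 30 (49.2%, against 58.5% of all), in an intron on the opposite strand 4, and over an exon on the same strand 4. The X chromosome holds 15 (24.6%, against 27.9% of all), chromosome IV 14, chromosomes I and II 11 each, chromosome III 7 and chromosome V 3. One intronic hairpin, mir-1828, lies in *pash-1*, the gene of Pasha itself. miR-1828 averaged 2.61 ± 1.29 CPM in the mutant and 2.46 ± 1.11 CPM in N2 and did not enter the tests.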

How the data were processed

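Small RNAs of 26 libraries of whole larvae were analysed, 13 per strain. For the deposited raw counts, the authors removed adapters, mapped the reads to ce10 (QuasR with Bowtie, up to 100 genomic matches) and assigned to each miRBase mature sequence the reads of its strand whose start lay within 3 bp of its 5′ end. Which Bowtie version they ran is not given. The deposited log2 values are the authors' counts scaled to a common total, with a pseudocount of 8 added, and were used only to check that formula. Both alleles of miR-235 were summed per arm.

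The tests were edgeR 4.0.16 quasi-likelihood tests (R 4.3.3) with TMM factors, on the 217 miRNAs that filterByExpr kept for groups by strain, with Benjamini-Hochberg adjustment over all 217 and a threshold of 0.01. Fits were the spline of 6 components plus strain, the same by strain, and a linear term with cosine and sine (7 h) within strains. The scripts' calls were tested on simulated counts. CPM is the count over the library total, with exact Poisson and Wilson 95% intervals, which cover counting error only because reads carry no molecular identifiers. A count of 0 is read against a floor of 3 counts per library. Introns and neighbours came from the Ensembl WBcel235 annotation, matched by hairpin name.

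The members and lists were chosen with earlier results of these data known. Named are members with a mean of at least 50 counts, those past the threshold, the other arm of their hairpins, and those next to the count limit. Other members named, such as miR-8191-5p, miR-2217b-3p, miR-4808-3p, miR-4810b-3p, miR-5546-3p, miR-5549-3p, miR-1817, miR-1828 and mir-8186, were chosen after their values were seen. The alternatives were size factors, library totals, dropping the filter or raising it to a mean of at least 50 counts, DESeq2 1.42.0, limma 3.58.1 on log2 values with a pseudocount of 8, a threshold of 0.05, mutant time later by 1 h, the hour as a block, a spline of 4 components, periods of 6.5 h and 8 h, and each library left out.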

Additional observations from a re-analysis of the deposited data

How the results depend on the processing

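The count of members higher in the mutant, 1, became 0 with no filter, with mutant time later by 1 h and with the hour as a replicate block. The count of members lower in the mutant, 1, became 2 at a threshold of 0.05. It became 0 with library totals, limma, no filter, mutant time later by 1 h and the hour as a replicate block. A stricter filter (mean count of at least 50) also gave 0, because it left miR-4806-5p (mean 32.4 counts) out of the test. The count of falling members, 6, became 11 with library totals, 11 with limma and 10 at a threshold of 0.05, while rising members stayed between 4 and 9 over the alternatives. With each library left out in turn, 0 to 1 members were higher, 0 to 2 lower, 4 to 7 rose and 5 to 9 fell, and 0 were called for rhythm in either strain or for any difference over time, in slope or in rhythm. With no filter, 1 of all 389 miRNAs was called for a mean strain difference. Shares of all miRNAs under the other settings are not given, so these counts are not read as particular to the members. No named member past the threshold changed its direction. Of those not past it, the strain difference of miR-1819-3p (-0.11) turned to 0.030 with library totals, 0.036 with limma and 0.046 without the N2 23 h library, and the amplitude difference of miR-2221 (-0.11) to 0.0022 with library totals, 0.0097 with a period of 8 h and 0.043 without the mutant 26 h library. The falls of miR-4810b-3p, miR-4808-3p and miR-4813-5p passed the threshold with library totals and with limma, and the rise of miR-5551-5p with size factors, no filter, the stricter filter and DESeq2. The median strain difference of all miRNAs turned to 0.01 with size factors and 0.10 with library totals, and their median slope to 0.001 with size factors.

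With the hour as a block, the difference of miR-2212-5p was 0.35 (adjusted p = 0.0204) and that of miR-4806-5p -0.49 (adjusted p = 0.0233). The labels do not pair the hours. Over the tested members, deviations of libraries of the same hour correlated between -0.45 and 0.50. This range cannot decide whether the hours form pairs. With no filter the differences were 0.38 (adjusted p = 0.0249) and -0.44 (adjusted p = 0.0242), and moving mutant time later by 1 h they were 0.30 (adjusted p = 0.0259) and -0.52 (adjusted p = 0.0152). For miR-4806-5p they were -0.37 with library totals (adjusted p = 0.0186) and -0.29 with limma (adjusted p = 0.0120). The cause of these changes was not tested. Depth limits the rest, since 49 of 79 members were too rare for the filtered tests and the 23 h N2 library held 1 count per 0.745 CPM.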
